A study of Mus musculus with 4 samples.

Results

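Ccl3, Ccl4, Ccl5, Ccl6 and Ccl9 encode inflammatory CC chemokines of macrophages, 5 of the 55536 Ensembl genes in the deposited tables. They were chosen by name, and each symbol, as the transcript names give it, led to 1 gene identifier. PolyA-selected RNA was sequenced from bone-marrow-derived macrophages, which are macrophages grown in culture from mouse marrow, in 4 libraries of 1 group from strain C57BL/6J. The sample descriptions say that all 4 cultures received Lipid A, the part of bacterial lipopolysaccharide that TLR4 recognises, at 100 ng/mL for 12 h, then 12 h of washout, then 100 ng/mL again for 60 min. Other label fields (source name, treatments) write lipoprotein A instead and mention no washout, and this conflict could not be settled. Sex and age were not collected, and the 4 libraries carry the same donor label. Untreated cells and cells treated once are not analysed here, so none of the levels measures a change caused by the agent. The labels number the libraries as biological replicates 1 to 4 but do not say whether they came from separate mice, and p-values measure the spread between these libraries only.

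CC chemokines are small secreted proteins named for a pair of adjacent cysteines near the start of the mature protein, and they draw leukocytes along a gradient by way of G protein-coupled receptors. Ccl3 (MIP-1α) acts through Ccr1 among other receptors, Ccl5 (RANTES) through Ccr1 and Ccr3 among others, and Ccl4 (MIP-1β) is the close relative of Ccl3. Ccl6 (C10) and Ccl9 (MIP-1γ) act through Ccr1 and belong to a branch of the family with a longer amino-terminal part. In macrophages, transcription of Ccl3, Ccl4 and Ccl5 is induced by NF-κB after TLR4 is engaged, and Ccl5 also by interferon regulatory factors, while resting mouse macrophages already make Ccl6 and Ccl9.

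The 5 genes lie on chromosome 11 of mm10 within 138.9 kb, from 83525778 to 83664683. In the GENCODE M21 annotation the order along the chromosome is Ccl5 (ENSMUSG00000035042.2, 83525778 to 83530518), Ccl9 (ENSMUSG00000019122.8, 83572919 to 83578636), Ccl6 (ENSMUSG00000018927.3, 83587882 to 83593087), Ccl3 (ENSMUSG00000000982.5, 83647844 to 83649355) and Ccl4 (ENSMUSG00000018930.3, 83662584 to 83664683). Ccl4 is on the plus strand and the other 4 are on the minus strand. The annotation places 2 other genes inside this span, E230016K23Rik with 0 to 3 counts per library and Rpl9-ps1 with 0 to 2. E230016K23Rik is on the strand opposite Ccl9, Ccl6, Ccl3 and Ccl5 and shares 0 exon bases with any transcript of the 5 genes, and whether the counting used strand is not given in the sources used here.

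The coding sequence around the paired cysteines shows what makes these 5 genes a family and how far their messages can be told apart by sequenced reads. The stretches are 60 bases of the GENCODE M21 coding transcripts, with the adjacent cysteine codons in capitals.
Ccl3: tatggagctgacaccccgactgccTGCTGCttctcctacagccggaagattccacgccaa
Ccl4: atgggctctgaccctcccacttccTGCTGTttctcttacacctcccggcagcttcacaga
Ccl5: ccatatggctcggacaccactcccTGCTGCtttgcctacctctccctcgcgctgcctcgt
Ccl6: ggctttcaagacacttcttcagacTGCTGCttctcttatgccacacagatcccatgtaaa
Ccl9: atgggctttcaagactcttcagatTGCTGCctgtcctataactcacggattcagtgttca
The pair is written TGCTGC in 4 genes and TGCTGT in Ccl4. It falls at codons 34 and 35 of 92 in both Ccl3 and Ccl4, and at codons 33 and 34 of 91 in Ccl5. In Ccl6 it falls at codons 50 and 51 of 116, and in Ccl9 at codons 57 and 58 of 122. Ccl3, Ccl4 and Ccl5 have 3 exons in their coding transcripts, whereas Ccl6 and Ccl9 have 4, so exon number and the place of the pair divide the family in the same way. Over the aligned coding bases Ccl6 and Ccl9 were the most alike of the 10 pairs, with 70.5% identical bases, followed by Ccl3 and Ccl4 with 69.6%, and Ccl5 and Ccl9 were the least alike with 59.2%. Even so, the longest run shared by any 2 of the coding transcripts was 25 bases, between Ccl6 and Ccl9, and it was 9 bases between Ccl3 and Ccl4.

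Sequence shared with other genes was a small part of any transcript of the members. It was looked for on both strands, so a match may be to the reverse complement of another transcript. Of all windows of 31 bases in Ccl3-201, Ccl4-201 and Ccl5-201, the coding transcripts of these genes, 0 occur in a transcript of another gene. In Ccl6-201, 18 of 1410 windows (1.28%) also occur in Slc17a4. In Ccl9-201, 120 of 2976 windows (4.03%), between bases 838 and 2963 of the transcript and outside its coding part, occur in transcripts of 1918 other genes, so the Ccl9 counts carry some uncertainty. The minor transcript Ccl5-202 shares 5 of 638 windows (0.784%) with 4 other genes.

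Expected counts on genes were between 23167140 and 41453162 per library. No 2 libraries agreed within sampling noise, with chi-square values of 51.6 to 254 per degree of freedom over genes. Transcripts of the macrophage markers Lyz2, Csf1r, Adgre1, Cd68, Itgam, Fcgr1, Mertk and Cd14 were all present at 1 TPM (an abundance scaled for transcript length and depth) or more in each library, 8 of 8, and summed to 16689, 17162, 17619 and 19742 TPM in replicates 1 to 4. Replicate 1 stood apart in its share of TPM on ribosomal RNA genes, 7.14% against 1.29% to 2.73% in the other 3 libraries, and had the lowest share on mitochondrial genes, 1.94% against 2.79% to 4.77%.

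The 5 genes covered a wide range of levels, and Ccl5 was by far the most abundant. Together they took 0.588% ± 0.131 of all gene counts (SD, n = 4), with 0.737%, 0.642%, 0.435% and 0.539% in replicates 1 to 4. Their summed level was 85.5% ± 5.36 of the TPM of a chosen list of CC chemokine ligands, the 5 genes and 14 others. Ccl5 alone made 69.0%, 82.8%, 83.3% and 81.7% of the summed TPM of the 5 genes in replicates 1 to 4. Its share was lowest in replicate 1, the library in which Ccl3 and Ccl4 were highest.

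Ccl5, which attracts T cells and monocytes, had 20642, 24383, 15773 and 19315 TPM in replicates 1 to 4, a mean of 20028 ± 3557 (SD, n = 4). It ranked 3rd, 3rd, 6th and 5th among all genes in these libraries. Replicate 2 was the highest and replicate 3 the lowest, and the coefficient of variation of 17.8% was the smallest of the 5 genes.

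Ccl4 and Ccl3, the macrophage inflammatory proteins that recruit monocytes and T cells, came next. Ccl4 had 4350, 2415, 1022 and 1491 TPM in replicates 1 to 4, a mean of 2319 ± 1472. Ccl3 had 3739, 1965, 1299 and 1793 TPM, a mean of 2199 ± 1065. For both genes replicate 1 was the highest and replicate 3 the lowest, and both spreads were far wider than the counting error, which was at most 2.29% for any of the 5 genes in any library. That bound leaves out PCR duplication, which makes reads depend on each other.

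Ccl9 and Ccl6 were the lower members. Ccl9, a Ccr1 ligand that mouse osteoclasts also make, had 1015, 579, 647 and 916 TPM in replicates 1 to 4, a mean of 789 ± 209. Ccl6, a Ccr1 ligand of mouse macrophages, had 173, 119, 194 and 136 TPM, a mean of 155 ± 34.2. Replicate 2 was the lowest library for both genes. The highest library was replicate 1 for Ccl9 and replicate 3 for Ccl6. In rank among all genes Ccl9 lay between 109 and 229, and Ccl6 between 750 and 1170.

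**Figure D1:**
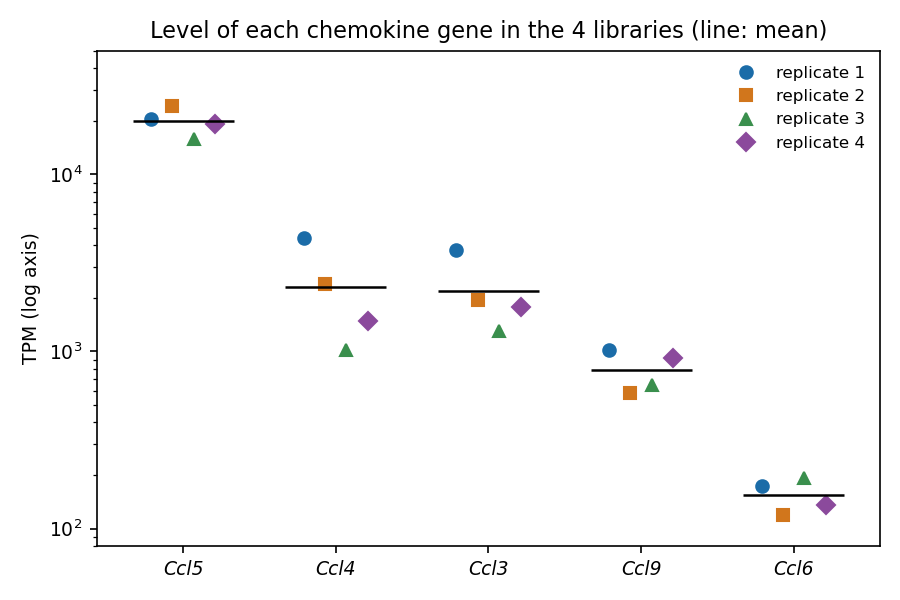
TPM (log axis) of the 5 chemokine genes, in order of mean, with 1 point per library and a line at the mean of the 4 libraries. Ccl5 lies between 15773 and 24383 TPM in every library, the points of Ccl4 and Ccl3 overlap, and Ccl6 lies between 119 and 194 TPM.

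The order of levels was compared between neighbours within each library, on the log2(TPM + 0.1) scale, by an exact two-sided sign-flip permutation test whose smallest possible p with 4 libraries is 0.125, so no pair could reach 0.05. Ccl5 exceeded Ccl4 by 2.25, 3.34, 3.95 and 3.70 log2 units in replicates 1 to 4, a mean difference of 3.31 ± 0.75 (SD, n = 4; higher in 4 of 4 libraries; exact p = 0.125), and the ranges of the genes did not overlap. As ratios of TPM these are 4.75, 10.1, 15.4 and 13.0, so the gap was narrowest in replicate 1.

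Ccl4 and Ccl3 did not differ beyond their spread. The log2 difference, Ccl4 minus Ccl3, was 0.22, 0.30, -0.35 and -0.27 in replicates 1 to 4, a mean of -0.02 ± 0.33 (SD, n = 4; higher in 2 of 4 libraries; exact p = 0.875). Ccl4 was thus the higher in replicates 1 and 2 and the lower in replicates 3 and 4, and the mean log2 difference has the opposite sign to the difference of mean TPM.

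By TPM the lower neighbours were ordered alike in all libraries. Ccl3 exceeded Ccl9 by 1.88, 1.76, 1.00 and 0.97 log2 units, a mean of 1.40 ± 0.48 (SD, n = 4; higher in 4 of 4 libraries; exact p = 0.125). Ccl9 exceeded Ccl6 by 2.55, 2.28, 1.74 and 2.75 log2 units, a mean of 2.33 ± 0.44 (SD, n = 4; higher in 4 of 4 libraries; exact p = 0.125). In neither pair did the ranges of the genes overlap. On CPM, which is not divided by length, the mean log2 difference was 0.08 for Ccl3 minus Ccl9 (exact p = 0.75), with Ccl9 the higher in replicates 3 and 4. With the coding transcripts alone, an alternative chosen after seeing the data, Ccl9 minus Ccl6 was 1.25 log2 units. On CPM Ccl4 minus Ccl3 was -0.37 (exact p = 0.125).

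**Figure D2:**
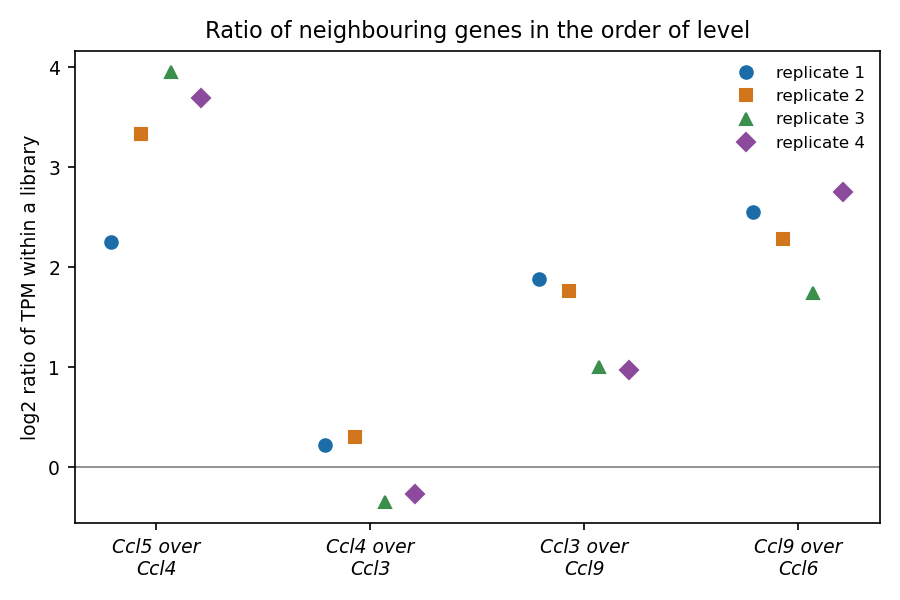
Log2 ratio of TPM between neighbouring genes in the order of level, 1 point per library, with a line at 0 where both genes are equal. Ccl4 over Ccl3 lies on both sides of 0, from -0.35 to 0.30, and the other 3 pairs lie above 0 in all 4 libraries.

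How far each message differed between the replicate libraries was tested with edgeR, which set a gene's deviance between libraries against the dispersion trend of genes of like level. The values are normalised CPM, counts scaled to library size with TMM factors, which compare libraries within a gene and not genes with each other. Of the 11679 genes that passed the filter on low counts 305 varied beyond the trend (2.61%, Benjamini-Hochberg adjusted p up to 0.05), and 2 of the 5 chemokine genes, Ccl4 and Ccl3, did so. All 5 passed the filter.

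Ccl4 varied most. It had 1318, 631, 263 and 395 normalised CPM in replicates 1 to 4, so the highest library had 5.02 times the lowest (edgeR adjusted p = 4.10e-05). Ccl3 had 1430, 648, 425 and 605 normalised CPM, a ratio of highest to lowest of 3.36 (edgeR adjusted p = 0.0140). Replicate 1 was 3.07 times the mean of the other 3 libraries for Ccl4 and 2.55 times for Ccl3. Without replicate 1 neither gene passed, with an edgeR adjusted p of 0.09996 for Ccl4 and 0.999857 for Ccl3, and without replicate 3 the adjusted p of Ccl3 was 0.177.

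The other 3 genes did not pass. Ccl9 had 1069, 492, 506 and 724 normalised CPM in replicates 1 to 4, with a ratio of highest to lowest of 2.17 (edgeR adjusted p = 0.404). Ccl6 had 148, 80.2, 147 and 106 normalised CPM and a ratio of 1.85 (edgeR adjusted p = 0.723). Ccl5 had 4303, 4386, 2743 and 3453 normalised CPM and a ratio of 1.60 (edgeR adjusted p = 0.999989).

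As SD of log2 normalised CPM over the libraries, Ccl4 had 1.00, Ccl3 0.74, Ccl9 0.53, Ccl6 0.43 and Ccl5 0.32, beside a median of 0.23 and a 90th percentile of 0.57 over all genes tested. The median ratio of highest to lowest library over all genes tested was 1.43, and each of the 5 chemokine genes was above it. Replicate 1 was the highest library in normalised CPM for 4 of the 5 genes, all but Ccl5, and for 27% of all genes tested. For Ccl6 replicates 1 and 3 were nearly equal, at 148.3 and 147.1 normalised CPM, and by TPM replicate 3 was the higher. Replicate 1 also had the highest share of TPM on ribosomal RNA genes, as given above. The part of that share in the differences between libraries was not tested. In RNA from whole cultures, fewer cells that make a message cannot be told apart from less message per cell.

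**Figure D3:**
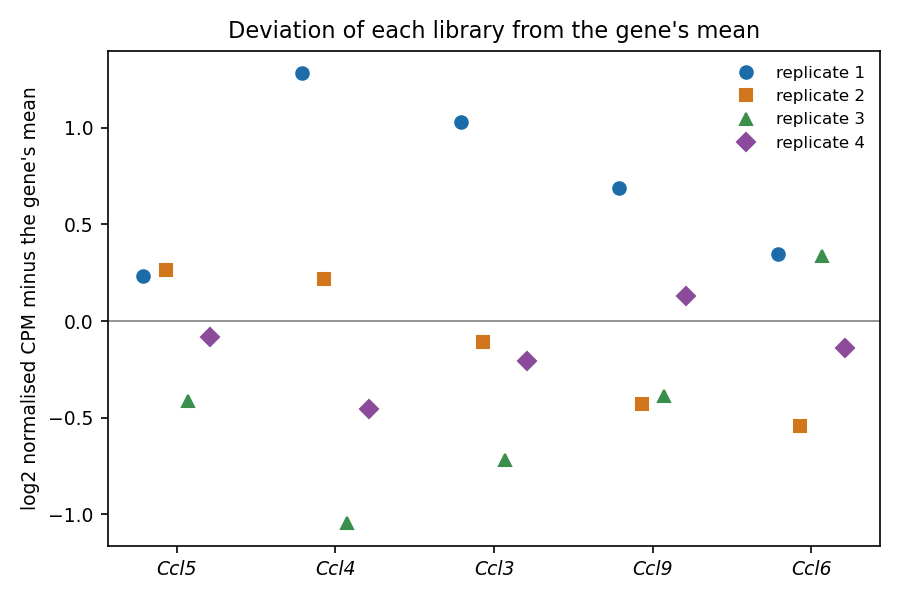
Log2 normalised CPM of each library minus the mean of the gene over the 4 libraries, for the 5 chemokine genes, with a line at 0. Ccl4 spans from -1.05 in replicate 3 to 1.28 in replicate 1, and Ccl5 spans from -0.41 in replicate 3 to 0.26 in replicate 2.

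**Figure D4:**
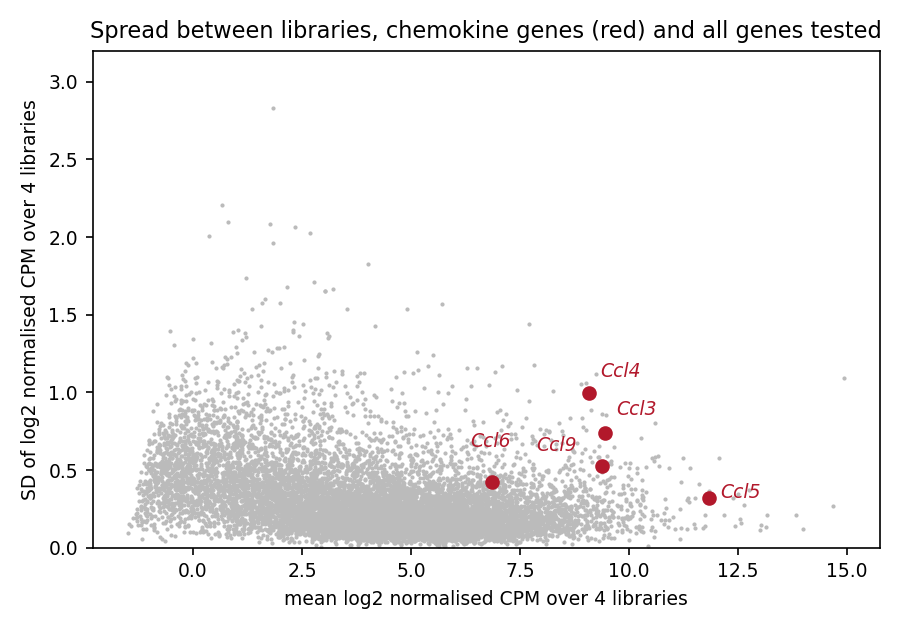
SD over the 4 libraries of log2 normalised CPM against its mean, for all 11679 genes tested (grey) and the 5 chemokine genes (red). Ccl4 at 1.00 and Ccl3 at 0.74 lie above the 90th percentile of all genes, 0.57, and Ccl5 at 0.32 lies nearest to their median of 0.23.

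The members did not move as one block from library to library. The ratio of Ccl3 to Ccl4, taken within each library on log2 normalised CPM, was 0.12, 0.04, 0.70 and 0.62 in replicates 1 to 4, with an SD of 0.34, the smallest of the 10 pairs. Ccl4 to Ccl6 was the most spread pair, with an SD of 1.07. Ccl3 to Ccl9 took 0.42 and 0.40 in replicates 1 and 2 and -0.25 and -0.26 in replicates 3 and 4. Between Ccl3 and Ccl4, and between Ccl3 and Ccl9, the ratio was nearly the same within replicates 1 and 2 and within replicates 3 and 4 but differed between these pairs of libraries. The ratio of Ccl4 to Ccl9, which follows from them, did the same, at 0.30, 0.36, -0.95 and -0.88. No pair with Ccl5 or Ccl6 did so. For instance, Ccl3 to Ccl5 took -1.59, -2.76, -2.69 and -2.51.

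Replicates 3 and 4 were deposited with 4 read files each and replicates 1 and 2 with 6 each, a division that is not a condition. The labels do not say whether these pairs of libraries differ in other ways. In the libraries with 4 read files Ccl4 averaged 329 normalised CPM, against 974.7 in those with 6, a log2 difference of -1.57 ± 0.41 (SE; edgeR quasi-likelihood adjusted p = 0.644). The DESeq2 adjusted p for the same difference was 0.00677. Ccl3 averaged 515 normalised CPM with 4 read files and 1039 with 6, a log2 difference of -1.01 ± 0.41 (edgeR adjusted p = 0.693, DESeq2 adjusted p = 0.297). Without replicate 1 the log2 difference was -0.95 for Ccl4 and -0.34 for Ccl3 (edgeR adjusted p = 0.999 for each). Both libraries with 4 read files were below both with 6 for Ccl4, Ccl3 and Ccl5, 3 of the 5 genes, beside 17.4% of all genes tested.

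For Ccl5 the means were 3098 normalised CPM with 4 read files and 4345 with 6 (log2 difference -0.49 ± 0.27, edgeR adjusted p = 0.745). Ccl9 averaged 615 with 4 and 780 with 6 (-0.34 ± 0.40, edgeR adjusted p = 0.882), and Ccl6 averaged 126 with 4 and 114 with 6 (0.15 ± 0.32, edgeR adjusted p = 0.937). The libraries overlapped for both of these genes. Over all genes tested edgeR called 0 genes (0%), with 838 at an unadjusted p under 0.05, and DESeq2 called 85 (0.728%). With 2 libraries on each side, a permutation test of a single gene could not go below 0.333. Within the libraries of 6 read files Ccl4 still differed 2.09-fold and Ccl3 2.21-fold, replicate 1 over replicate 2, and within those of 4 the ratio of replicate 3 to replicate 4 was 0.665 for Ccl4 and 0.703 for Ccl3. Each side holds 2 libraries of the same group, so no test was made within it.

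At the level of transcripts, Ccl3 and Ccl4 have 1 annotated transcript each. Ccl5 was almost entirely its coding transcript, Ccl5-201, at 99.4% ± 0.12 of the gene's TPM (SD, n = 4), and the retained-intron transcript Ccl5-202 took the rest. Ccl9 and Ccl6 were split between a coding and a noncoding transcript, and the split bears on how their levels are read.

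For Ccl9 the noncoding transcript led by TPM and the coding one by count. The coding transcript Ccl9-201, of 3006 bases, had 489, 258, 257 and 355 TPM in replicates 1 to 4, a mean of 340 ± 110. The noncoding Ccl9-202, annotated as a processed transcript of 398 bases, had 527, 321, 390 and 561 TPM, a mean of 450 ± 113. By TPM Ccl9-202 was therefore the larger in all 4 libraries, at 57.2% ± 4.37 of the gene, while by expected count it was 6.53% ± 0.74. TPM divides by an effective length, which is not the annotated length, so the annotated lengths alone do not give this share. In the second quantification, made directly from the reads, Ccl9-202 took 64.2% ± 7.20 of TPM and 10.1% ± 2.17 of estimated counts. Of its 398 bases 359 are shared with the coding transcript, and 39 bases, its first exon, are not.

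For Ccl6 the coding transcript Ccl6-201 held 93.5%, 78.8%, 95.5% and 94.2% of the gene's TPM in replicates 1 to 4. The retained-intron transcript Ccl6-202, of 776 bases, held 6.37%, 20.6%, 4.01% and 5.60%, with replicate 2 apart from the other 3. In the second quantification its shares were 42.0%, 46.5%, 9.96% and 9.39%, high in replicates 1 and 2 and low in replicates 3 and 4. The quantifications thus differ most in replicate 1, where the second gave 42.0% and the first 6.37%. All but 71 bases of Ccl6-202 are also in the coding transcript, and the third transcript, Ccl6-203, reached at most 0.62% of the gene's TPM in the first quantification.

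The bases that set each noncoding transcript apart from the coding one are shown because the shares rest on reads that reach them, both from the minus strand of mm10, at chr11:83577104-83577142 for Ccl9-202 and chr11:83589805-83589875 for Ccl6-202.
Ccl9-202: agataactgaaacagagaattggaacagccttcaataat
Ccl6-202: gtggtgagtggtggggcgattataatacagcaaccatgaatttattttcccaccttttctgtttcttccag
The stretch of Ccl6-202 is intron sequence joined to the exon that follows it, and that of Ccl9-202 is an exon that the coding transcript does not use.

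**Figure D5:**
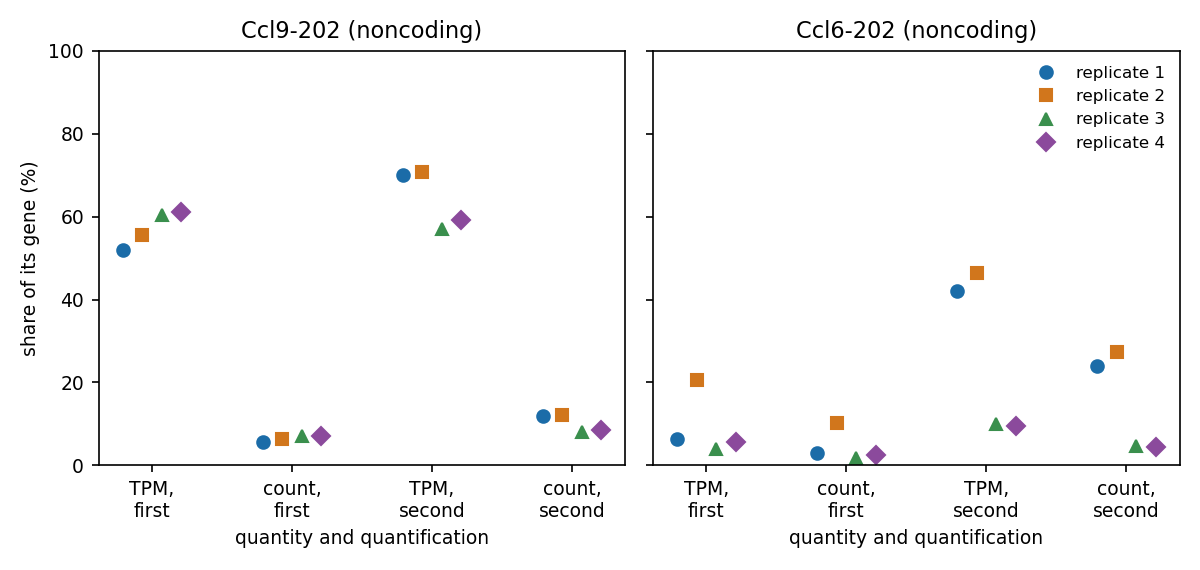
Share in percent of the noncoding transcripts Ccl9-202 (left) and Ccl6-202 (right) in their genes, by TPM and by count, in the first and second quantification, 1 point per library. Ccl9-202 lies between 51.9% and 70.9% by TPM but at 12.1% or less by count, and Ccl6-202 lies above 40% by TPM in replicates 1 and 2 of the second quantification only.

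The second quantification gave lower TPM for the most abundant member, at 14283 ± 996 TPM for Ccl5 (SD, n = 4) against 20028 ± 3557 in the first. For Ccl4 it gave 1696 ± 952 TPM and for Ccl3 1631 ± 645, with replicate 1 again the highest library for both. In its TPM, both libraries with 4 read files were below both with 6 for Ccl4 but not for Ccl3 or Ccl5. Ccl3 had 1235 TPM in replicate 2 against 1514 in replicate 4, and Ccl5 had 14376 in replicate 1 against 14810 in replicate 4. Counts of the members in the second quantification were 1.05 to 1.29 times those in the first, beside 1.32, 1.31, 1.09 and 1.09 for all genes in replicates 1 to 4. The ratio was thus higher in the libraries with 6 read files for the members and for all genes together.

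Among the other CC ligands 14 were listed, and 7 had at least 1 TPM in each library. Of the 7 tested 3 varied between libraries, beside 2.61% of all genes tested. These were Ccl2, Ccl7 and Ccl12, monocyte chemoattractants that lie on the same chromosome, all with replicate 1 as the highest. Ccl8, also on chromosome 11, did not vary (edgeR adjusted p = 0.999989). It had 485, 629, 847 and 573 TPM in replicates 1 to 4, lowest in replicate 1. Ccl7 had 3097, 1718, 1210 and 601 TPM in replicates 1 to 4 (edgeR adjusted p = 1.44e-05). Ccl2 had 2951, 1528, 931 and 605 TPM (edgeR adjusted p = 6.61e-06). Their means, 1656 ± 1063 and 1504 ± 1038, were below those of Ccl4 and Ccl3 by less than 1 SD over the libraries. Ccl12 had 1427, 605, 488 and 297 TPM (edgeR adjusted p = 4.79e-08). Without replicate 1, 1 ligand of this list passed. In these 3 genes replicate 4 was the lowest library, whereas in Ccl4 and Ccl3 it was replicate 3. Ccl1, Ccl11, Ccl17, Ccl19 and Ccl26 had 0 counts in every library, where a count of 0 allows up to 3 counts.

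Ccr1 and Ccr3, signalling receptors of these ligands, were below each of the 5 ligands in every library. Ccr1 had 35.9, 11.9, 18.3 and 11.5 TPM in replicates 1 to 4, a mean of 19.4 ± 11.5, and varied between libraries (edgeR adjusted p = 4.63e-05). Ccr3, a receptor of Ccl5, had 17.3, 1.33, 2.14 and 0.720 TPM in replicates 1 to 4, with replicate 1 far above the rest (edgeR adjusted p = 7.42e-22). The atypical receptor Ccrl2, which does not signal by G proteins, was the most abundant of the 6 receptors listed, at 475 ± 151 TPM. Of the 4 receptors tested 2 varied, Ccr1 and Ccr3, beside 2.61% of all genes tested. Without replicate 1 the count of receptors that varied was 0. The scavenging receptors Ackr1 and Ackr2 had at most 1 count in any library.

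Of the 7 carriers and proteases that hold or trim chemokines, 1 varied, beside 2.61% of all genes tested. This was Mmp9, a gelatinase, at 1.21, 0.610, 0.680 and 0.190 TPM from 59, 9, 39 and 13 counts in replicates 1 to 4 (edgeR adjusted p = 0.0169). The count was 0 with no filter on low counts and without replicate 1, 2 or 4. Serglycin (Srgn), a proteoglycan that stores chemokines in granules, had 513 ± 94.1 TPM. The heparan sulphate carrier Sdc4 had 441 ± 125 TPM and Cd44 had 69.8 ± 8.52 TPM (SD, n = 4 for each).

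All 17 regulators of chemokine transcription and mRNA decay had at least 1 TPM in each library. Of these 1 varied, beside 2.61% of all genes tested. This was Fos, a subunit of AP-1, with 69.6, 56.4, 50.03 and 128 TPM in replicates 1 to 4 (edgeR adjusted p = 0.0169), and without replicate 2, 3 or 4 it did not pass. Its highest library was replicate 4, not replicate 1. The 3 most abundant regulators were Irf7, an inducer of interferon genes, at 2323 ± 360 TPM, the NF-κB inhibitor Nfkbia at 1168 ± 295, and Zfp36, which promotes decay of AU-rich messages, at 959 ± 332. None of these 3 passed the test of variation (edgeR adjusted p between 0.348 and 0.999989).

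The genes most like each member over the 4 libraries were found among 6484 protein-coding genes with a mean of at least 10 TPM, by the root mean square difference of centred log2 normalised CPM. Ccl4 was most like Ifnb1, the interferon-β gene, at a difference of 0.0237 log2 units, and Ifnb1 had 18.8, 8.94, 3.60 and 5.64 normalised CPM in replicates 1 to 4. After it came Slc28a2 at 0.151 and Rapgef5 at 0.177. Carhsp1 at 0.0446, the complement receptor C5ar1 at 0.0640 and Cd72 at 0.0860 were the most like Ccl3. The closest to Ccl5 were Fndc3b at 0.0199, the ribosomal protein gene Rplp2 at 0.0199 and Hgs at 0.0213. Among the genes nearest to Ccl6 were Dynlt1b at 0.0772 and Gm20390 at 0.0804, and nearest to Ccl9 were Cdc42ep4 at 0.0390, Plaur at 0.117 and Dok2 at 0.126. The measure rests on 4 points and is small by construction between genes that vary little. Among the members themselves Ccl3 was the 15th nearest gene to Ccl4, at 0.292 log2 units, and Ccl4 the 68th nearest to Ccl3. Ccl9 was the 114th nearest to Ccl3, at 0.332 log2 units.

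Other cells that make these chemokines were looked for by their markers. Of 8 T cell markers 1, Cd4, reached 1 TPM in each library, and the list summed to 30.7 to 53.4 TPM. Cd3e, Cd3d, Cd3g and Trac had 0 to 5 counts in any library. Of 7 NK cell markers 0 reached 1 TPM in each library, with sums of 0.0200 to 0.770 TPM. The dendritic cell list (1 of 5, Ccr7) summed to 4.08 to 6.83 TPM, the B cell list (1 of 4, Cd79b) to 1.65 to 6.63, and the mast cell and basophil list (0 of 4) to 0.470 to 0.990, with Fcer1a at 0.

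The sum of the neutrophil markers, and Ccr3 of the eosinophil list, differed between libraries. The neutrophil list (2 of 7, S100a8 and S100a9) summed to 125, 12.7, 98.3 and 12.1 TPM in replicates 1 to 4, with Ly6g at 0 in all of them. It was high in replicates 1 and 3, the libraries in which Ccl6 was also highest, and its part in the Ccl6 values was not tested. The eosinophil list (0 of 4) summed to 17.9, 1.66, 2.52 and 0.950 TPM, most of it Ccr3, which is also on the receptor list. Siglecf had 0.39, 0.11, 0.14 and 0.09 TPM in replicates 1 to 4, Prg2 had 0.19, 0.22, 0.24 and 0.14, and Epx was at 0. The sum of the eosinophil list was highest in replicate 1, as were Ccl3 and Ccl4, and its part in their values was not tested.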

How the data were processed

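The authors deposited, for each of the 4 libraries, a gene table and a transcript table of a first quantification, and a transcript table of a second. Per the deposited records both use mm10 and GENCODE M21; the first starts from transcriptome alignments, the second from the read files themselves. The programs are not given in the sources used here. Per the file headers, columns of the first are an expected count, TPM, FPKM and each transcript's share of its gene in percent, and the second an estimated count and TPM; the deposited counts are not normalised, and TPM and FPKM are scaled by the authors for length and depth. From 81881 entries the 55536 Ensembl genes were kept.

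Expected counts were rounded. edgeR 4.0.16 (R 4.3.3) filtered them by filterByExpr, scaled them by TMM and gave a trended dispersion with an intercept only. The deviance of each gene was set against that trend on 3 degrees of freedom and adjusted by Benjamini-Hochberg over 11679 genes at 0.05. The biological coefficient of variation common to all genes was 22.4%. The libraries with 4 read files were compared with those with 6 by edgeR's quasi-likelihood test and DESeq2 1.42.0. Other steps ran in Python 3.11.15 (scipy 1.17.1, Biopython 1.88, pandas 2.3.3, numpy 2.4.6, matplotlib 3.10.9). Both edgeR fits were also run on counts simulated from the means and dispersion trend of these data, with an outcome not reported here. Detection means at least 1 TPM in each library.

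The members and gene lists were chosen with earlier results of these data known. Genes named are the members, list genes that varied or were among the 3 highest of their list by mean TPM, and the 3 genes nearest each member, with cell markers named as defining genes. Alternatives were other normalisation, filter, tool, quantification, unit, pseudocount (1 for 0.1) and each library left out. Some results of the lists and of the nearest genes are not reported here.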

Additional observations from a re-analysis of the deposited data

Results flagged for a closer look

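In groups of 4 libraries a value was looked at again when the gap between its highest or lowest library and the nearest other library, divided by the whole range, passed Dixon's 95% critical value. Of 34 values checked 3 did so, and chance alone flags about 1 in 20. The share of Ccl6-201, the coding transcript, in the TPM of Ccl6 was 78.8% in replicate 2 against 93.5% to 95.5% in the others, a gap of 0.878 of the range. Its counterpart Ccl6-202, a retained-intron transcript, was at 20.6% in replicate 2 against 4.01% to 6.37%, a gap of 0.858 of the range. These shares are nearly complementary and make 1 observation. Ccl6 had its fewest counts in replicate 2, 1911 against 3519 to 6486, of which Ccl6-202 took 196. In the second quantification replicate 2 did not stand alone, since replicate 1 had 42.0% and replicate 2 46.5%. Ccr3, a receptor of Ccl5, had 39.2 normalised CPM in replicate 1 against 1.49 to 4.31 in the others, a gap of 0.925 of the range.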

How the results depend on the processing

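Of 208 recomputed values 177 kept their direction and side of the threshold, or moved by less than 1 SD or 1.5 times. With each library left out in turn, the adjusted p of variation was 0.0126 to 0.999857 for Ccl3 and 2.41e-04 to 0.09996 for Ccl4, and variable genes numbered 135 to 219. Counts then were 1 to 3 for other CC ligands, 0 to 2 for receptors, 0 to 1 for carriers and proteases and 0 to 1 for regulators. For carriers and proteases the count was also 0 with no filter. The division by read files then gave log2 differences of -1.47 to -0.34 for Ccl3, -2.002 to -0.95 for Ccl4, -0.23 to 0.64 for Ccl6 and -0.80 to 0.31 for Ccl9, reversed for Ccl6 without replicate 2 (-0.23) or 3 (-0.11) and for Ccl9 without replicate 1 (0.31). A library left alone on its side was assumed to vary like the others. Genes called numbered 0 to 12, against 85 by DESeq2, 35 with no filter and 16 in the second quantification; DESeq2 called Ccl4 at -1.59. With a library left out, Ccl4 minus Ccl3 ranged from -0.13 to 0.083 log2 units, reversed without replicate 3 (0.083) or 4 (0.057); on CPM, not divided by length, it was -0.37, and Ccl3 minus Ccl9 was 0.08. Mean Ccl5 was 14283 TPM in the second quantification and 13741 as FPKM, and as FPKM Ccl6 was 107 and Ccl9 544. Ccl9 was 340 TPM by its coding transcript alone, an alternative chosen after seeing the data, and Ccl9 minus Ccl6 was then 1.25. In the second quantification Ccl5-201 held 98.9%, Ccl6-201 72.8% and Ccl9-201 35.8% of their genes. Where libraries were left out fewer were tested; otherwise the cause was not tested. No paired analysis was possible because there is 1 group. Counting error was at most 2.29%, and 4 libraries set the smallest p of the order test, 0.125.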
